A study of Mus musculus with 12 samples.

Results

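The 39 genes described here encode the heat shock chaperones of the cytosol and the mitochondria, with their cochaperones and 2 heat shock factors. They were chosen by gene symbol and not by a rule on measured values, although earlier results of these data were known. All 39 were found among the 55401 genes listed with normalized counts. By role they are 8 HSP70 and HSP110 chaperones (Hspa1a, Hspa1b, Hspa4, Hspa4l, Hspa8, Hspa13, Hspa14 and Hsph1), 6 HSP90 chaperones and cochaperones (Hsp90aa1, Hsp90ab1, Stip1, Ahsa1, Chordc1 and Fkbp4) and 11 J-domain cochaperones of the HSP40 family (Dnaja1, Dnaja2, Dnaja4, Dnajb1, Dnajb2, Dnajb4, Dnajb5, Dnajb6, Dnajc2, Dnajc5 and Dnajc7). The others are 5 small heat shock proteins and BAG cochaperones (Hspb1, Hspb8, Bag1, Bag2 and Bag3), 4 mitochondrial chaperones (Hspa9, Hspd1, Hspe1 and Dnaja3), 3 subunits of the chaperonin TRiC (Cct2, Cct5 and Tcp1) and the factors Hsf1 and Hsf2. Chaperones of the endoplasmic reticulum were not chosen, although Hspa13 is a microsomal HSP70 protein.

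Heat shock proteins bind unfolded or partly folded proteins and keep them from aggregating until they can fold. HSP70 works with J-domain proteins, which deliver clients and stimulate its ATPase, and passes part of its clients on to HSP90 or to the barrel-shaped TRiC, while HSP60 (Hspd1) and HSP10 (Hspe1) form the barrel of the mitochondrial matrix. When unfolded proteins accumulate, as after heat, the factor HSF1 binds heat shock elements, runs of alternating GAA and TTC units in promoters, and the inducible members of the family are transcribed within minutes.

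RNA was sequenced from airway organoids grown from airway epithelial cells of adult C57BL/6J mice. All organoids of both groups carried a lentiviral H2A-mCherry reporter driven by the p63 promoter, which marks the nuclei of basal cells. All were moved into FluoroBrite imaging medium before the laser step. In 6 ablation dishes, 10 neighboring cells of each of 45 organoids were killed with a femtosecond laser, and in 6 control dishes the same number of organoids was kept under the same conditions without laser. All dishes were harvested 4.5 h later. The dishes of both groups are numbered 1, 3, 4, 5, 6 and 7, and the 2 dishes with the same number have passage and culture day in common and were treated as 6 pairs. Culture days were 14 for pairs 1 and 4, 15 for pair 5, 18 for pair 6, 19 for pair 7 and 20 for pair 3. Pairs 1, 3 and 5 form library set 1 and pairs 4, 6 and 7 library set 2, as read from the library numbers. The titles of controls 4, 6 and 7 contain the word ablation beside a treatment label that says control, and these dishes were taken as controls. The RNA of a dish averages over all cells of its organoids, so fewer cells with a transcript and less of it per cell cannot be told apart, and a response of the few cells beside a wound is diluted by all others.

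The normalized counts of the libraries summed to 27297950 to 28504390. Whole reads could be recovered for 9 libraries, with 23631212 to 29775699 reads, and the mitochondrial genome contributed 1.29% to 1.79% of the counts. All 39 chaperone genes passed the filter of at least 10 normalized counts in at least 6 of the 12 libraries, which 13792 genes passed. The 14 basal cell markers, among them Krt5 and Trp63, summed to 2.45% to 3.05% of the counts of a library. The 8 fibroblast markers summed to 20 to 46 normalized counts in the ablation dishes and to 19.8 to 48.3 in the controls, and the 6 endothelial markers to 8.9 to 26.3 and to 7.0 to 20.5. The 8 immune markers summed to 214.8 to 363.3 and to 228.2 to 372.7, with Adgre1 among those at 0 in every library. In other lists, Sftpc and Sftpb of alveolar type 2 cells, Bpifb1 of secretory cells and Tekt1 of multiciliated cells were at 0 throughout. The club cell marker Scgb1a1 stayed under 10 normalized counts in every library. Other members of these lists were detected. The 7 alveolar type 2 markers summed to 1180 to 1402 in the ablation dishes and to 1087.8 to 1467.5 in the controls. The 10 multiciliated markers summed to 10417 to 14238 and to 10737 to 15548, where Tubb4b alone had a mean of 12852. The 11 secretory markers summed to 58080 to 109793 and to 60093 to 96068.

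The promoters show which of these genes carry the letters of a heat shock element near their start. In the RefSeq windows of build GRCm38.p6, from 250 bases before to 50 after a gene's start, 31 of the 39 genes were represented. A three-unit element, which is GAANNTTC followed directly by NNGAA, on either strand, was present in the windows of 5 of them (16.1%), Chordc1, Dnajb6, Hspd1, Hspe1 and Hsph1, against 0.662% of all 27025 genes with a window. The inward pair GAANNTTC, which is also a part of the three-unit element, was present in 14 of the 31 (45.2%, against 9.04% of all genes), and the outward pair TTCNNGAA, likewise a part of it, in 7 (22.6%, against 9.6%). TATAAA was found in 1 window, that of Stip1 (3.23%, against 15.7%). The list was chosen to include HSF1 targets, so a share above that of all genes follows in part from the choice. Hspd1 and Hspe1 hold the same site, and the windows of Hspa1a and Hspa1b are near copies, so these are not separate matches. These are matches of letters only, and binding was not measured.

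The following 30-base stretches are shown because they hold the three-unit elements, in capitals, in the orientation of the named gene's strand.
Hspe1, chr1:55088053-55088082, plus strand: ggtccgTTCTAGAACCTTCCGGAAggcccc
Dnajb6, chr5:29735843-29735872, plus strand: cagctccgaGAATCTTCCGGAAcgctagac
Hsph1, chr5:149636280-149636309, minus strand: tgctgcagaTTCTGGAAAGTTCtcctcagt
Chordc1, chr9:18292259-18292288, plus strand: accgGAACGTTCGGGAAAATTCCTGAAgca

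The Hspe1 stretch is shared with Hspd1, which is transcribed from the same place on the opposite strand. It lies at bases -95 to -66 from the start of Hspe1 and, in the GENCODE annotation, in the untranslated first exon of the transcript Hspd1-202. The stretches of Dnajb6, Hsph1 and Chordc1 lie in annotated untranslated exons of these genes, and that of Dnajb6 also in a coding exon of Gm5129 on the opposite strand.

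The next 2 stretches of 120 bases are shown because they lie upstream of the most strongly inducible HSP70 and small heat shock protein genes and hold inward pairs, again in capitals. In the GENCODE annotation both are intergenic.
Hspa1a, chr17:34972197-34972316, minus strand: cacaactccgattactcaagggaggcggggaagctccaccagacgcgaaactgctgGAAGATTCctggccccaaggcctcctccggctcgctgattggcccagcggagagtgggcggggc
Hspb1, chr5:135887756-135887875, plus strand: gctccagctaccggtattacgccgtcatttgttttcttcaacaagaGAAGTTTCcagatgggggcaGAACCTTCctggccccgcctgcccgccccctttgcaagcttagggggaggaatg

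The same 120 bases stand upstream of Hspa1b, at chr17:34959279-34959398 on the minus strand, with all 120 identical, and 296 of the 300 bases of the 2 windows agree (98.7%). The transcribed parts also share long stretches. Stretches of 75 bases, the length of a read, were taken from the longest transcript of each gene and sought on either strand. Of those of Hspa1b, 55.8% also occur in Hspa1a. Of those of Hspa1a, 52.7% occur in Hspa1b and 61.7% in any other gene. The split of reads between both genes is therefore uncertain, and their sum is given beside them. Stretches shared with other genes, mostly pseudogenes, also made up 53.1% of Hsp90aa1, 47.3% of Hspb1, 41.3% of Hspa8, 39.5% of Dnajb6, 33.7% of Hspd1 and 26.2% of Dnaja1, and 51.5% of Dnaja4 overlapped Wdr61 on the opposite strand.

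Together the 39 genes contributed 1.16% to 1.35% of the normalized counts of a library, with sums of 319531.9 to 366105.9 in the ablation dishes and 327061.4 to 383451.2 in the controls. Levels between genes were compared as normalized counts per kb of merged exons, averaged over the 12 dishes. The constitutive HSP90 gene Hsp90ab1 stood highest at 31873 per kb, at the 99.9th percentile of the genes tested. The mitochondrial HSP70 gene Hspa9 followed with 10274 per kb, the TRiC subunit Cct2 with 8663 and the constitutive HSP70 gene Hspa8 with 5842. The inducible partners of these constitutive genes were far lower on the same scale. The level of Hsp90aa1, the inducible HSP90 gene, was 2462 per kb, that of Hspa1b 989 and that of Hspa1a 47.1. The levels of Hspa8, Hsp90aa1, Hspa1b and Hspa1a depend on how reads of the shared stretches were assigned. Only the J-domain gene Dnajb5 (27.4 per kb) was lower than Hspa1a, and next above it stood the factor Hsf2 (55.7 per kb) and the J-domain gene Dnajb4 (73.3 per kb), whereas Hsf1 had 223 per kb.

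**Figure D1:**
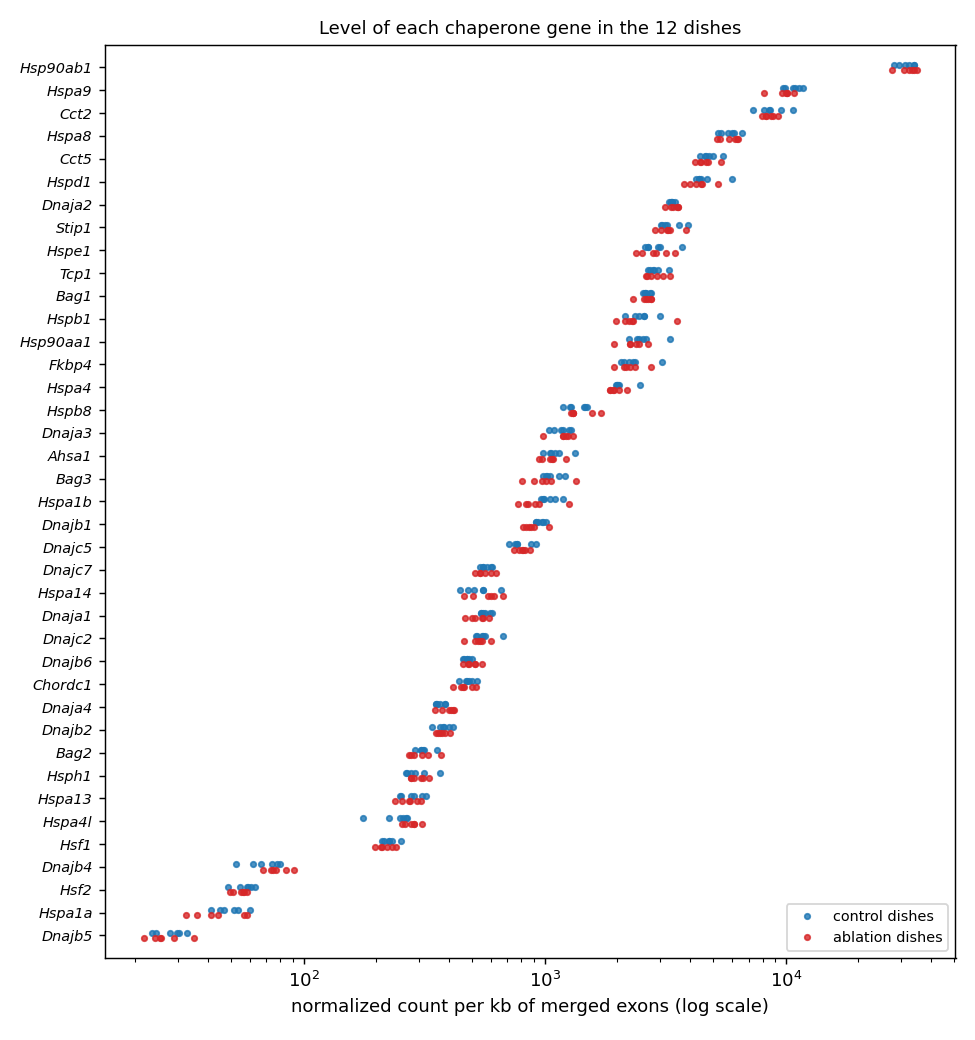
Level of each of the 39 chaperone genes in normalized counts per kb of merged exons, on a log axis, with 1 point per control dish (blue) and per ablation dish (red). The genes span from 27.4 (Dnajb5) to 31873 (Hsp90ab1) in the mean over dishes, and for each gene the points of both groups overlap.

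The comparison of ablation with control asks whether killing 10 cells per organoid changed the chaperone genes of the dish 4.5 h later. With the library set as second factor, none of the 39 genes passed the threshold of an adjusted p-value of 0.05 (limma, Benjamini-Hochberg over all genes tested), and neither did any of the 13792 genes (0%). At an unadjusted p-value under 0.05, 1 chaperone gene was counted, Hspa4l, against 7.85% of all genes. With the pair in place of the library set (paired model), Hspa4l was the only one of the 39 to pass, and it rose, while 150 of all genes passed (1.09%), 93 of them higher (0.674%) and 57 lower (0.413%). The other 38 genes had log2 fold changes, ablation minus control, between -0.19 for Hspa1b and 0.19 for Dnajb4. In both models the 95% interval of each of the 39 log2 fold changes lay within a 1.5-fold change in either direction, from a lowest bound of -0.47 for Hspa1a to a highest of 0.42 for Hspa4l.

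**Figure D2:**
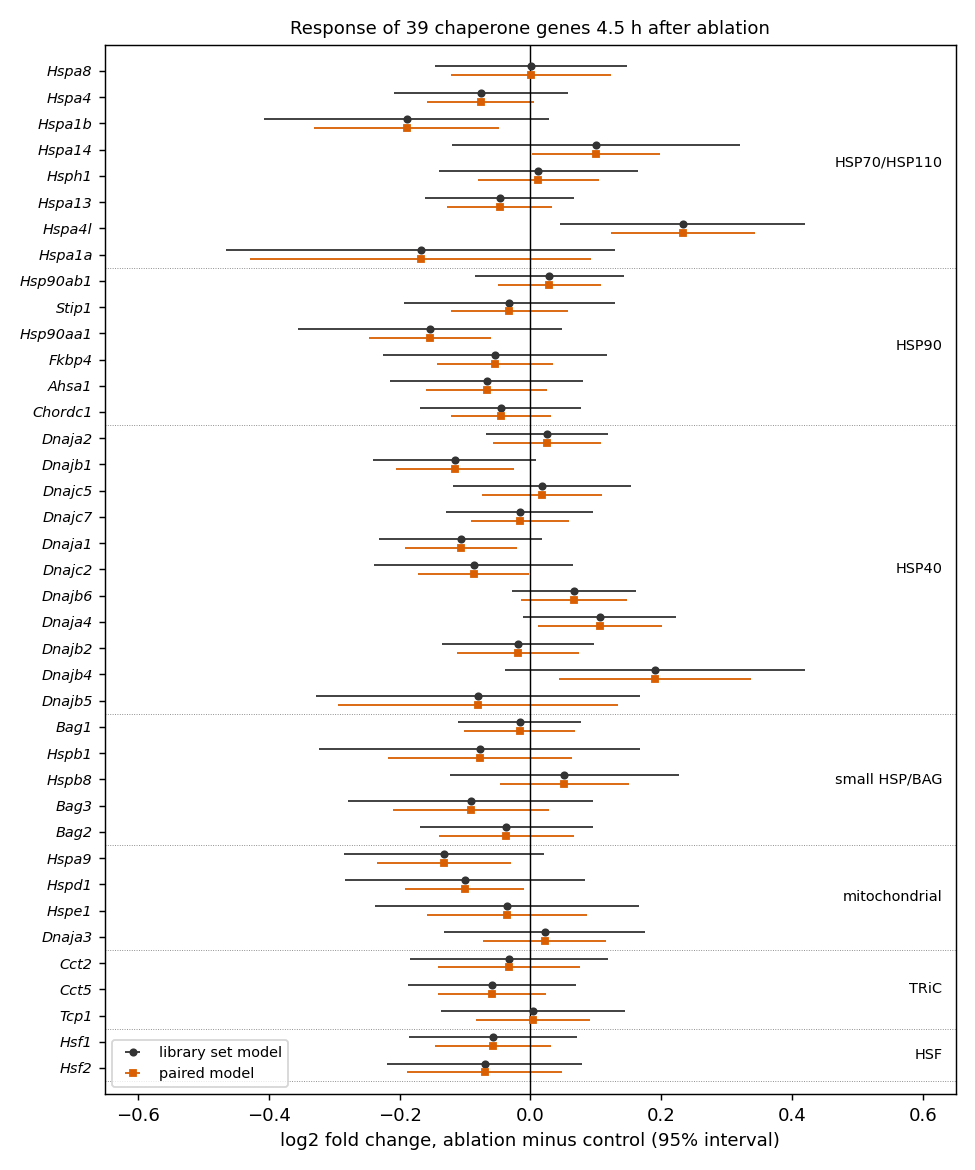
Log2 fold change, ablation minus control, of the 39 chaperone genes grouped by role, with 95% intervals from the library set model (grey circles) and the paired model (orange squares), n = 6 dishes per group. Only the intervals of Hspa4l leave out 0 in both models, and no interval reaches beyond -0.47 or 0.42.

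Hspa4l (ENSMUSG00000025757.13, chr3:40745382-40796103, plus strand, GRCm38) encodes an HSP110-type chaperone that acts as a nucleotide exchange factor of HSP70. Its normalized counts in ablation dishes 1, 3, 4, 5, 6 and 7 were 3038, 2925, 3298, 3571, 3199 and 3296. In the control dishes of the same numbers they were 2584, 2029, 2887, 3075, 2957 and 3043. The ablation dish was higher in 6 of 6 pairs, although the groups overlapped, and the widest gap was in pair 3, where the control was the lowest of all 12 dishes. The mean was 3221 ± 226 after ablation and 2762 ± 400 in the control (SD, n = 6 each), and the log2 fold change was 0.23 (limma, adjusted p = 0.598 with the library set, SE 0.087, and 0.0489 in the paired model, SE 0.051). The call of the paired model stood close to the threshold. The adjusted p-value in the limma model was 0.0503 to 0.159 when any single pair was left out, 0.0519 with TMM factors, 0.0523 with quantile normalization and 0.198 with limma's plain empirical Bayes step. Only 0.181% of the 75-base stretches of Hspa4l occur in another gene.

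**Figure D3:**
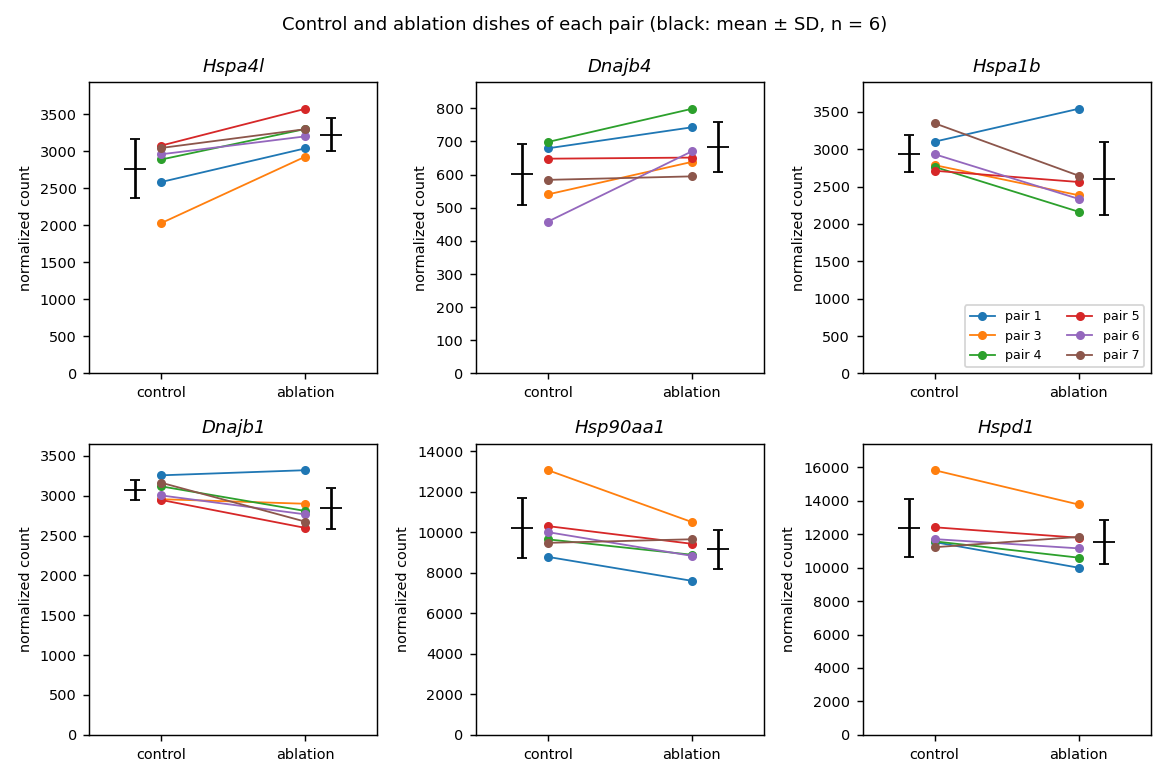
Normalized counts of 6 chaperone genes in the control and ablation dish of each pair, joined by a line, with the mean ± SD of each group in black (n = 6). Hspa4l and Dnajb4 were higher after ablation in 6 of 6 pairs, Hspa1b and Dnajb1 were lower in each pair other than pair 1, and Hsp90aa1 and Hspd1 were lower in each pair other than pair 7.

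The inducible HSP70 genes, which are usually among the first to respond to unfolded protein, were not higher 4.5 h after ablation. Earlier times were not measured. Hspa1b had 3540, 2384, 2163, 2561, 2335 and 2646 normalized counts in ablation dishes 1, 3, 4, 5, 6 and 7 and 3100, 2787, 2763, 2711, 2933 and 3346 in the controls of the same numbers. The ablation dish was lower in 5 pairs and higher in pair 1, and ablation dish 1 was the highest of all 12. The means were 2605 ± 489 after ablation and 2940 ± 244 in the control (SD, n = 6 each), and the log2 fold change was -0.19 (limma, adjusted p = 0.686, and 0.17 in the paired model). Without pair 1, the pair that went the other way, the log2 value in the paired model was -0.27 and the adjusted p-value 0.0237 (limma). Over the 6 fits that each left out 1 pair, the adjusted p-value was 0.0237 to 0.375 (limma), past the threshold in 1. With library set 2 alone, which also lacks pair 1, the values were -0.34 and 0.0241. With library set 1 alone, 0 chaperone genes passed in the paired model. Its near copy Hspa1a had 172.5, 167.9, 106.9, 122.0, 130.3 and 96.4 normalized counts in the ablation dishes and 177.6, 121.8, 132.9, 152.2, 159.0 and 137.9 in the controls. It was lower after ablation in 5 pairs and higher in pair 3. The sum of both genes gave a log2 fold change of -0.19 (limma, adjusted p = 0.676, and 0.164 in the paired model).

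The other HSP70 and HSP110 genes did not pass the threshold either. Hspa8, the constitutive HSP70, ranged from 22330 to 27120 in the ablation dishes (median 25704) and from 22468 to 28340 in the controls (median 25258), and was higher in 3 of 6 pairs. Hsph1, which encodes HSP110 and carries a three-unit element, ranged from 2019 to 2395 (median 2163) against 1933 to 2668 (median 2065), with a log2 fold change of 0.01. Hspa14, an HSP70 protein of the ribosome-associated complex, ranged from 1872 to 2723 (median 2385) against 1798 to 2657 (median 2157) and was higher in 5 of 6 pairs. Its log2 fold change of 0.10 did not pass the threshold (limma, adjusted p = 0.836, and 0.272 in the paired model). Hspa4 and Hspa13 had log2 fold changes of -0.08 and -0.05.

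Of the HSP90 genes, the inducible and the constitutive form stood on different sides of 0. Hsp90aa1 ranged from 7597 to 10496 normalized counts in the ablation dishes (median 9153) and from 8777 to 13054 in the controls (median 9821). It was lower after ablation in 5 of 6 pairs, and its log2 fold change of -0.15 did not pass the threshold (limma, adjusted p = 0.716, and 0.102 in the paired model). Without the filter on low values, its adjusted p-value was 0.0292 in the paired model (limma). Hsp90ab1 ranged from 82818 to 104803 (median 98938) against 84159 to 102432 (median 95375) and was higher in 4 of 6 pairs. Its log2 fold change was 0.03. The difference between the 2 genes' responses was not tested.

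The HSP90 cochaperones all lay slightly below 0 without passing the threshold. Stip1 (HOP), which links HSP70 to HSP90, ranged from 6018 to 8133 after ablation (median 6791) and from 6374 to 8244 in the control (median 6688). Ahsa1, an activator of the HSP90 ATPase, ranged from 4140 to 5378 (median 4644) against 4304 to 5828 (median 4716). Chordc1 ranged from 3121 to 3893 (median 3452) against 3305 to 3907 (median 3591), and was lower in 5 of 6 pairs. Fkbp4, the immunophilin FKBP52 of steroid receptor complexes, ranged from 5420 to 7700 (median 6191) against 5760 to 8552 (median 6369). The log2 fold changes of these 4 genes were -0.03, -0.07, -0.05 and -0.05, and their groups overlapped.

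Of the J-domain genes, 5 were higher and 6 lower after ablation in their log2 fold changes, and none passed the threshold in either model. Dnajb1 (HSP40), the inducible partner of HSP70, ranged from 2595 to 3319 in the ablation dishes (median 2787) and from 2946 to 3255 in the controls (median 3059). It was lower in 5 of 6 pairs. The log2 fold change was -0.12 (limma, adjusted p = 0.65, and 0.181 in the paired model). Dnaja1 ranged from 4006 to 5066 (median 4578) against 4688 to 5215 (median 4824) and was also lower in 5 of 6 pairs, with -0.11. Dnajc2, a ribosome-associated J-domain protein, ranged from 2331 to 3003 (median 2671) against 2616 to 3379 (median 2775), with -0.09.

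Dnajb4 and Dnaja4 stood on the other side. Dnajb4 ranged from 595 to 799 after ablation (median 661) and from 458 to 699 in the control (median 616), and was higher in 6 of 6 pairs, by as little as 0.0074 on the log2 scale in pair 5 and by as much as 0.55 in pair 6. Its log2 fold change of 0.19 did not pass the threshold (limma, adjusted p = 0.696, and 0.176 in the paired model). Dnaja4 ranged from 1256 to 1509 (median 1450) against 1265 to 1384 (median 1300) and was higher in 5 of 6 pairs, with 0.11. Dnajb6, which suppresses aggregation of polyglutamine proteins, was higher in 6 of 6 pairs as well, by 0.07 in the log2 fold change. The remaining J-domain genes Dnaja2, Dnajb2, Dnajb5, Dnajc5 and Dnajc7 had log2 fold changes between -0.08 and 0.03.

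Hspb1 (HSP25), a small heat shock protein that holds unfolded proteins and stabilizes actin, ranged from 2044 to 3651 in the ablation dishes (median 2340) and from 2212 to 3094 in the controls (median 2592). The highest value in each group was that of dish 1. Its log2 fold change of -0.08 did not pass the threshold (limma, adjusted p = 0.89, and 0.571 in the paired model). Bag3, which couples HSP70 to small heat shock proteins in selective autophagy, ranged from 2058 to 3451 (median 2537) against 2529 to 3115 (median 2645), likewise with dish 1 highest in each group, and its log2 fold change was -0.09. Hspb8, the partner of Bag3, Bag1 and Bag2 had log2 fold changes of 0.05, -0.02 and -0.04.

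The mitochondrial chaperones Hspa9 and Hspd1 were lower after ablation in 5 of 6 pairs each, without passing the threshold. Hspa9 (mortalin), which drives protein import into the matrix, ranged from 35052 to 46607 normalized counts in the ablation dishes (median 43374) and from 41897 to 50818 in the controls (median 46667), with a log2 fold change of -0.13 (limma, adjusted p = 0.69, and 0.181 in the paired model). Hspd1 (HSP60) ranged from 9994 to 13774 (median 11470) against 11219 to 15824 (median 11638), with -0.10. Its partner Hspe1 (HSP10) lies on the opposite strand and shares the stretch shown above. Hspe1 ranged from 3511 to 5129 (median 4188) against 3842 to 5490 (median 4157), with a log2 fold change of -0.04. Dnaja3, the J-domain partner of Hspa9, had 0.02.

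The TRiC subunits Cct2, Cct5 and Tcp1, which fold actin and tubulin among others, had log2 fold changes of -0.03, -0.06 and 0.00. Hsf1, the main factor of the heat shock response, ranged from 1397 to 1711 after ablation (median 1536) and from 1494 to 1802 in the control (median 1602), with -0.06. Hsf2 ranged from 476 to 559 (median 532) against 466 to 601 (median 560), with -0.07. Neither passed the threshold. HSF1 is regulated mainly as a protein, which was not measured.

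Taken as a list, 26 of the 39 genes had a log2 fold change below 0 (66.7%, against 51.5% of all genes tested), and the median log2 fold change was -0.04, against -0.0036 over all genes. Among the 17 members listed as strongly heat-inducible, from Hspa1a and Hspb1 to Stip1 and Fkbp4, 13 were below 0 and 4 above, with a median of -0.07. The 4 were Hspa4l, Dnajb4, Hsph1 and Hspa8, although Hspa8 is described above as constitutive. In all 6 pairs, 3 of the 39 were higher after ablation (7.69%, against 5.17% of all genes), namely Hspa4l, Dnajb4 and Dnajb6, and 0 were lower (4.63% of all genes). For 0 of the 39 did the ablation and control dishes not overlap (0.457% of all genes). At an unadjusted p-value under 0.05 in the paired model, 11 of the 39 genes were counted (28.2%, against 17.6% of all genes). Of these, 4 were higher (10.3%, against 8.78%), which were Hspa4l, Hspa14, Dnaja4 and Dnajb4, and 7 were lower (17.9%, against 8.86%), which were Hspa1b, Hspa9, Hsp90aa1, Hspd1, Dnaja1, Dnajb1 and Dnajc2. The direction differed between pairs. The number of the 39 genes that were lower in the ablation dish was 21 in pair 1, 24 in pair 3, 19 in pair 4, 33 in pair 5 and 25 in pair 6, but 10 in pair 7, while 47.3% (pair 7) to 51.9% (pair 4) of all genes tested were lower.

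Related genes outside the 39 were counted in the same way. Over all genes tested, 51.5% had a log2 fold change below 0, and in the paired model 0.674% passed as higher and 0.413% as lower. Of 14 other mitochondrial chaperones and proteases, all tested, 12 had log2 fold changes below 0, and 1 fell in the paired model. This was Lonp1, the matrix protease that degrades misfolded proteins, with 6868 ± 999 normalized counts after ablation against 8108 ± 882 (SD, n = 6 each), a log2 fold change of -0.24 and lower values in 6 of 6 pairs (limma, adjusted p = 0.614, and 0.0444 in the paired model). All 5 tested members of the other TRiC subunits were below 0, with values between -0.03 and -0.02. Of 17 other HSP90 cochaperones, 12 were below 0, and of 6 prefoldin subunits, 3. Of 8 tested other HSP70, BAG and small heat shock genes, 5 were below 0, as were 3 of 9 other J-domain genes and 1 of 3 other heat shock factors and their binding proteins. None of the members of these 6 lists passed the threshold. The 14 chaperones of the endoplasmic reticulum were divided, with 7 above and 7 below 0 and none past the threshold. Among them, the lectin chaperone gene Calr was higher in 6 of 6 pairs (log2 fold change 0.13) and Dnajb9 lower in 5 of 6 (-0.12).

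Among 12 tested heat-induced genes that are not chaperones, 7 were above 0 and 1 rose in the paired model, against 0.674% of all genes. This was Jun, an immediate early transcription factor gene that is induced by many stimuli, with 3969 ± 700 normalized counts against 3213 ± 629 (SD, n = 6 each), a log2 fold change of 0.31 and higher values in 6 of 6 pairs (limma, adjusted p = 0.629, and 0.0209 in the paired model). The mRNAs of the cold-inducible RNA-binding proteins, which are known to rise when cells cool and to fall on heating, were both higher. Cirbp had 1841 ± 238 normalized counts after ablation against 1398 ± 69.2 in the control (SD, n = 6 each), which is 0.39 on the log2 scale, without overlap of the groups and with higher values in 6 of 6 pairs (limma, adjusted p = 0.187, and 0.0148 in the paired model). For Rbm3 the log2 fold change was 0.17, with higher values in 6 of 6 pairs (limma, adjusted p = 0.629, and 0.0863 in the paired model).

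Of the 14 basal cell markers 4 were above 0 and 10 below, with a median log2 fold change of -0.10, and of the 7 tested secretory markers 2 were above and 5 below, with a median of -0.16. Over all genes tested, 51.5% were below 0. In each list 1 gene passed the threshold in the paired model, which 1.09% of all genes passed. The basal cell factor Trp63 rose in the paired model by a log2 fold change of 0.39 (limma, adjusted p = 0.00825, and 0.187 with the library set), and the secretory marker Aldh1a1 by 0.42 (limma, adjusted p = 0.00184, and 0.53 with the library set), while the basal cell markers Krt17 and Pdpn had -0.19 and -0.18 without passing the threshold. The summed basal cell markers ranged from 674712.3 to 846184.8 normalized counts in the ablation dishes and from 682699.4 to 825355.9 in the controls. The part of these markers in the values of the chaperone genes was not tested.

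The dishes of a group also differed from each other, and the dish that stood highest recurred within roles. Control dish 3, from culture day 20, was the highest of the 6 controls for 20 of the 39 genes (51.3%, against 24.9% of all genes). For 15 genes dish 3 was the highest in both groups (38.5%, against 12.9%). Dish 3 was chosen after its values were seen, and no test was made of it. The HSP90 genes led this pattern, with control 3 highest for 6 of 6, together with the TRiC subunits, with 3 of 3, and followed by the HSP70 and HSP110 genes, with 4 of 8, the mitochondrial chaperones, with 2 of 4, and the J-domain genes, with 4 of 11. The largest excess of control 3 over the median of the other controls was 0.47 on the log2 scale for Hspe1, followed by 0.45 for Fkbp4 and 0.45 for Hspd1, 0.44 for Hsp90aa1 and 0.40 for Hsph1. In ablation dish 3 the same differences were 0.31, 0.34, 0.30, 0.24 and 0.20. Not all chaperones took part, since Hspa4l in control 3 stood at -0.54 from the median of the other controls and Dnajb4 at -0.26.

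Dish 1 was the highest in both groups for 5 of the 39 genes (12.8%, against 12.1% of all genes), a share near that of all genes. Among the 5 small heat shock proteins and BAG cochaperones, none was highest in dish 3. Hspb1, Hspb8 and Bag3 were highest in dish 1 of each group, Bag2 in dish 7 of each group, and Bag1 in ablation dish 4 and control dish 5. Over the 5 genes, the median deviation of ablation dish 1 from the group median was 0.38 on the log2 scale, while that of the 4 mitochondrial chaperones in the same dish was -0.28. The sum of the secretory cell markers, most of it from Cyp2f2 and Krt8, was highest in dish 1, with 109793 normalized counts after ablation and 96068 in the control, and lowest in dish 3, with 58080 and 60093. Of the 7 tested markers, 3 (Cyp2f2, Aldh1a1 and Lypd2) were highest in dish 1 of both groups, while Krt8 was highest in dish 5 of both. Their part in the chaperone values was not tested.

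**Figure D4:**
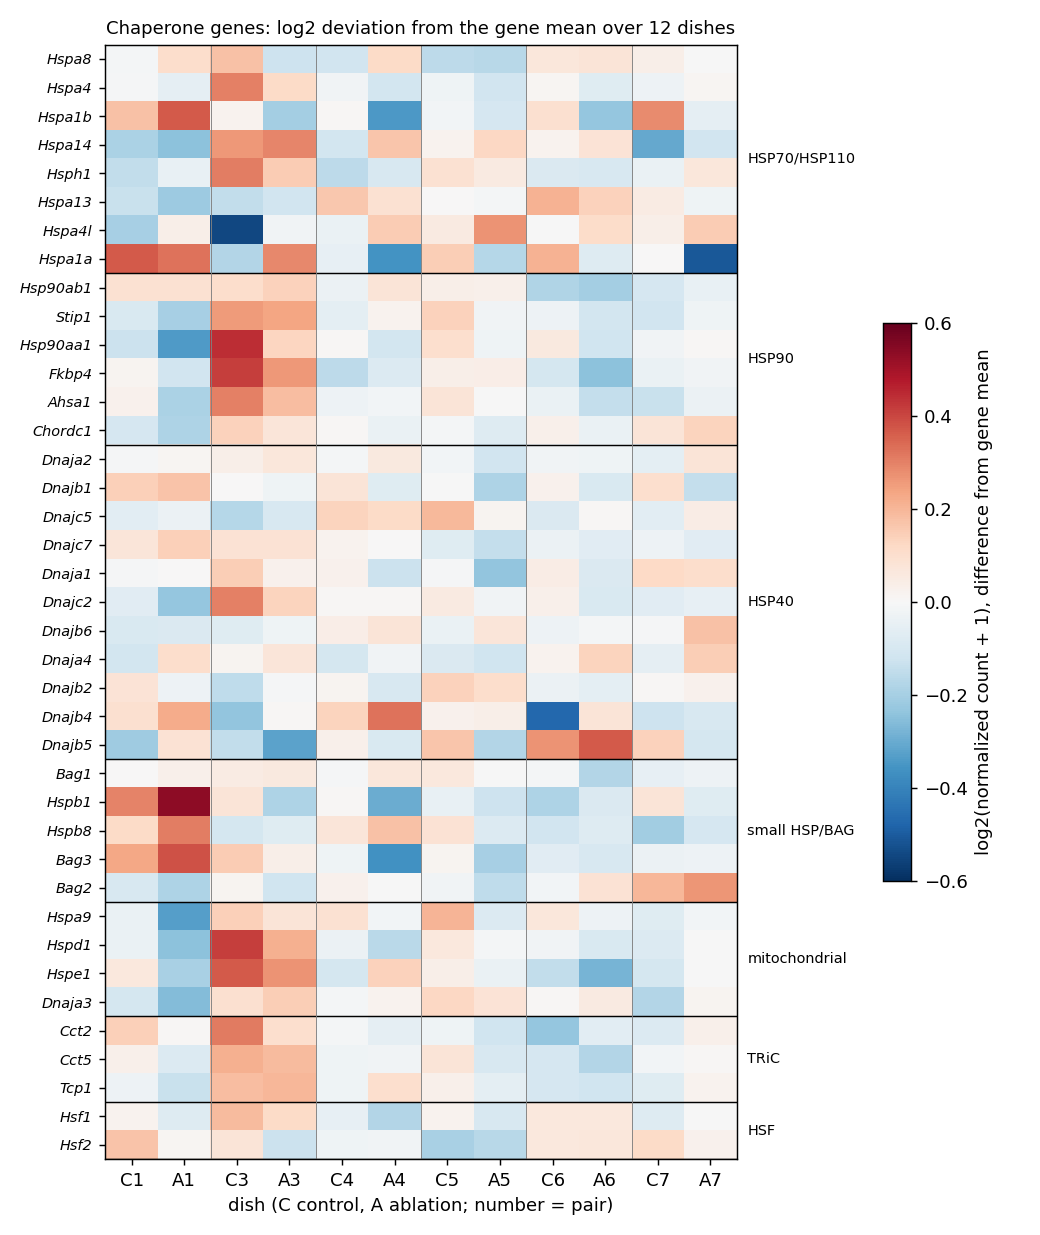
Log2 value (normalized count + 1) of each of the 39 chaperone genes in the 12 dishes, as the difference from the gene's mean over all dishes, with control (C) and ablation (A) dishes of a pair side by side. Dish 3 is red in both groups for most HSP90, mitochondrial and TRiC genes, and dish 1 for Hspb1, Hspb8 and Bag3, with the highest value for Hspb1 in ablation dish 1 (3651 normalized counts).

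The culture day was compared on the means of the pairs, days 18 to 20 (pairs 3, 6 and 7) against days 14 and 15 (pairs 1, 4 and 5), with the library set as second factor. None of the 39 genes passed the threshold (limma, lowest adjusted p = 0.762), and 1 of the 13792 genes did (0.00725%). At an unadjusted p-value under 0.05, 2 of the 39 were counted (5.13%, against 6.49% of all genes), Hspb8 with a log2 difference, late minus early, of -0.22 (95% interval -0.41 to -0.04) and Dnajb4 with -0.30 (-0.51 to -0.09). Hsp90aa1 had 0.21 and Hspd1 0.21, and neither passed the threshold.

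The library sets were compared in the same fit. None of the 39 genes passed the threshold (limma, lowest adjusted p = 0.445), nor did any of the genes tested (0%). At an unadjusted p-value under 0.05 2 of the 39 were counted (5.13%, against 10.9% of all genes), Fkbp4 with a log2 difference, set 2 minus set 1, of -0.28 (95% interval -0.50 to -0.06) and Hspa13 with 0.22 (0.03 to 0.41). Library set and passage overlap and cannot be told apart here, except for pairs 4 and 5.

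The response to ablation was also compared between the library sets and between the culture days, with the pair as a term. None of the 39 genes differed past the threshold between the sets (limma, lowest adjusted p = 0.538), while 1 of the 13792 genes did (0.00725%). Hspa1b had the lowest p-value, with a difference in response, set 2 minus set 1, of -0.30 on the log2 scale (95% interval -0.51 to -0.09), while Cct2 had 0.23 (0.06 to 0.40) and Hspe1 0.22 (0.01 to 0.42). These 3 were the ones with an unadjusted p-value under 0.05 (7.69%, against 7.88% of all genes). Between the culture days none of the 39 genes passed (limma, lowest adjusted p = 0.853), nor did any gene (0%), and 2 had an unadjusted p-value under 0.05 (5.13%, against 5.82% of all genes). These were Hspa9 with a response that was 0.19 higher at the later days (95% interval 0.02 to 0.37) and Hspa8 with -0.22 (-0.43 to -0.01).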

How the data were processed

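Bulk RNA of 12 dishes was measured, 6 per group by the treatment label. Per the labels and the methods, the authors isolated all RNA in a single run, made stranded poly(A) libraries, and processed paired-end reads of 75 bases with bcl2fastq and the nf-core RNA-seq pipeline on GENCODE GRCm38.p6. The read aligner is not given in the sources used here. The deposited signal values are read counts that the authors divided by 1 DESeq2 size factor per library. The authors' own log2 fold changes, score columns (standard errors and Wald statistics) and p-values in the deposited table were not used, nor was their mean over all libraries, while the gene lengths that the file gives were.

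Log2(value + 1) was compared with limma 3.58.1 in R 4.3.3 (eBayes with trend and robust estimation) over the 13792 genes that reached 10 normalized counts in 6 or more libraries, with Benjamini-Hochberg adjustment and a threshold of 0.05. Fold changes are on the log2(value + 1) scale, which understates those of low genes. The library set stood in for the batch of the authors' 2-factor model, which they do not name. In the paired model the pair replaces it. The titles give the dishes of a number the same passage and culture day, and the deviations of same-numbered dishes from their group means correlated across genes with r = 0.618, 0.493, 0.205, 0.317, 0.381 and 0.332 for pairs 1, 3, 4, 5, 6 and 7. For pair 4 the highest correlation with a dish of another number, 0.286, was above its own. Culture days and library sets were tested on pair means. Differences between responses were planned on pair differences, but were fitted in the model of all 12 libraries with the pair as a term, because the planned form did not recover known changes in simulated data. In each column, 100% of the low values were whole multiples of a step, and edgeR 4.0.16 was run on the reads of the 9 libraries for which whole reads were accepted, where it called 0 genes.

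The 39 genes and all lists were chosen with earlier results of these data known. Values by dish are given for the strongly heat-inducible genes, those with an unadjusted p-value under 0.05 and the heat shock factors, as lowest, median and highest per group or dish by dish. Genes of other lists are named where they passed the threshold in a model or had an unadjusted p-value under 0.05 in both. Nothing in the labels says that the dishes of a number came from separate animals, so p-values measure the spread between these dishes. Intervals cover 95%. One marker gene is not reported here by name.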

Additional observations from a re-analysis of the deposited data

Results flagged for a closer look

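In 9 of the 78 groups of 6 dishes (39 genes in each condition; 11.5%), the highest or lowest dish lay farther from its nearest neighbor than Dixon's 95% critical value for the gap over the range allows, against 7.3% of such groups over all genes tested. Chance flags about 1 in 20 groups. Control dish 3 stood apart as the highest for 6 genes, with 13766 normalized counts for Hspa4 (next 11245), 13054 for Hsp90aa1 (next 10296), 15824 for Hspd1 (next 12411), 5490 for Hspe1 (next 4439), 3379 for Dnajc2 (next 2846) and 8552 for Fkbp4 (next 6584). Ablation dish 1 stood apart for the other 3, as the highest for Hspa1b with 3540 (next 2646) and for Hspb1 with 3651 (next 2390), and as the lowest for Dnaja3 with 3850 (next 4661).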

How the results depend on the processing

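The count of 0 chaperone genes held in the library set model under each alternative without a replicate block and with edgeR on the reads of 9 libraries. The count over all genes was 0 as well, except for 3 with no filter on low values. The replicate block gave 1 chaperone gene and 150 genes in all, 0 and 16 with library set 1 alone, 1 (Hspa1b) and 109 with library set 2 alone, 2 (Hspa4l and Hsp90aa1) and 356 with no filter on low values, 0 and 0 with plain eBayes, and 0 and 2 in edgeR on 4 pairs. Leaving out a single pair, the paired model called 0 to 1 chaperone genes and 8 (without pair 4) to 176 (without pair 1) in all, 90 without pair 3 and 77 without pair 5; the 1 gene, without pair 1, was Hspa1b, and Hspa4l was not called in any of these fits. Added after its call was seen, the adjusted p of Hspa4l in the paired model (limma) was 0.00475 to 0.32 over 9 settings, past the threshold in 3. At the settings not named here, the block changed no call among the 39.

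Of the 39 log2 fold changes, 23 kept their direction in every alternative and 16 did not, among them Hspa1a, which had -0.17 in the library set model. With TMM factors, Hspa8 had -0.00145. With library set 1 alone, Hspa1a had 0.034, Hspa8 -0.0646, Hsph1 -0.0304, Dnaja2 -0.0155, Dnaja3 -0.0471, Dnajc5 -0.0252 and Tcp1 -0.0583. With library set 2 alone, Hspe1 had 0.0728, Bag2 0.046, Stip1 0.0293, Ahsa1 0.00367 and Cct2 0.0812. In edgeR on 9 libraries, Hspa8 had -0.0276, Hsph1 -0.0289, Hsp90ab1 -0.00299, Hspb1 0.0529, Dnaja2 -0.0029, Dnaja3 -0.0149, Dnajb2 0.00256 and Tcp1 -0.0723. Leaving out a single pair moved Hspa8 between -0.0447 and 0.0616, Hsph1 between -0.00671 and 0.0457, Hspe1 between -0.092 and 0.00839, Dnajb2 between -0.0513 and 0.000107, Cct2 between -0.0737 and 0.00242, Tcp1 between -0.0201 and 0.0252, Bag1 between -0.0344 and 0.0128, Dnaja3 between -0.0125 and 0.0567 and Dnajc5 between -0.000341 and 0.0567, in both models. The cause was not tested. The counts of 0 for culture day, library set and differing responses held under all their alternatives. A response of a few cells per organoid is diluted in RNA of whole dishes. With 6 dishes per group, the 95% interval of each of the 39 genes lay within a 1.5-fold change in the library set and the paired model. These intervals hold gene by gene and are not given for the alternatives.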
